A study of Bos taurus with 9 samples.

Results

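The genes described here are 31 that carry glucose from uptake to pyruvate, lactate and pentose sugars: 4 carriers of hexoses, 10 enzymes of the upper part of glycolysis including PGM1, 6 of the lower part, 6 genes of lactate and pyruvate handling, and 5 of the pentose phosphate pathway. They were chosen by gene symbol, with no measured value in the rule, though earlier results of these data were known. All 31 were found among the 16129 genes listed in all 9 libraries. The 9 libraries are RNA sequencing of cloned Bos taurus embryos. These were made by somatic cell nuclear transfer, where an enucleated egg receives a donor cell's nucleus.

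Glycolysis splits glucose into pyruvate in a chain of enzyme steps, several of which can be carried out by any of a few paralogs (related genes for the same reaction). Lactate dehydrogenase exchanges pyruvate with lactate, pyruvate dehydrogenase passes pyruvate to the mitochondria, and the pentose phosphate pathway turns glucose 6-phosphate into NADPH and the ribose of nucleotides. Mammalian embryos are known to depend mainly on pyruvate and lactate during the first cleavages and to take up more glucose as they compact and form a blastocyst.

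The KDM6A morulae came from cloned embryos injected with mRNA of wild-type bovine KDM6A, an enzyme that removes methyl groups from a lysine of histone H3 (the H3K27 mark), 1 h after activation. The control morulae were cloned embryos that received no injection, and the labels mention no mock injection. Donor cells of the morulae were fibroblasts from 1 female Holstein fetus, cultured in low serum, and each morula library is a pool of 5 embryos taken on day 5. The 8-cell group holds cloned embryos labelled as controls and taken from an earlier series, so a difference of stage and one of source series cannot be told apart. Each group has 3 libraries. The labels do not say that these came from separate days or oocyte batches, so the p-values speak of the spread between these libraries, which may be partly technical.

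Values are FPKM (fragments scaled by transcript length and by library total), a level per length that can be set side by side between genes. Depth is unknown, and summed FPKM per library was 820346 to 1022420, with 8923 to 9757 genes at 1 FPKM or more. Pearson's correlation of log2(FPKM + 1) was 0.983 to 0.993 among KDM6A morulae, 0.986 to 0.992 among control morulae and 0.973 to 0.979 among 8-cell libraries. Between morula and 8-cell libraries it was 0.822 to 0.893. KDM6A itself had 35.65, 87.58 and 79.44 FPKM in KDM6A morulae, 10.72, 13.86 and 10.74 FPKM in control morulae and 6.13, 9.41 and 10.73 FPKM in 8-cell embryos. KDM6A replicate 1 thus held the least KDM6A mRNA of its group.

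The 5 pluripotency markers were at 1 FPKM or more in all morula libraries. Summed over 10 oocyte markers, the level was 113.9 to 195.8 FPKM in KDM6A morulae, 22.61 to 488.6 FPKM in control morulae and 3835 to 9138 FPKM in 8-cell embryos, highest in 8-cell replicate 2 and, among control morulae, in replicate 1. BTG4 made up most of the sum in 8-cell embryos. Sums over 6 trophectoderm markers were 233.2 to 284.2, 261.4 to 314.7 and 321.3 to 439.1 FPKM in KDM6A morulae, control morulae and 8-cell embryos, mostly TFAP2C. The others did not follow that sum: KRT8, KRT18 and TEAD4 were higher in every morula library than in any 8-cell library, and GATA3 in every control morula library. GATA3 and GATA2 differed by log2 -1.22 and -1.25 between KDM6A and control morulae (limma, adjusted p 0.0561 and 0.0601). Sums over 10 fibroblast markers were 80.3 to 130.6, 118.5 to 167.3 and 18.45 to 65.67 FPKM in the same 3 groups. FN1 made up most of that sum in the morulae. FN1, DCN, S100A4 and THY1 were at 1 FPKM or more in all 6 morula libraries, and of these FN1, S100A4 and THY1 were higher there than in any 8-cell library. COL1A2, COL3A1 and PDGFRB were below 0.5 FPKM in all 6. LUM and VIM went the other way, lower in every morula library than in any 8-cell library. LUM had 2.21, 29.11 and 5.59 FPKM in 8-cell embryos and at most 2 FPKM in morulae. COL1A1 averaged 0.653 FPKM in KDM6A morulae, 0.53 FPKM in control morulae and 2.35 FPKM in 8-cell embryos. Within the 8-cell group each of the 10 fibroblast markers was highest in replicate 2. The 7 cumulus and granulosa markers summed to 7.11 to 12.21, 11.59 to 14.29 and 18.74 to 36.46 FPKM, and the 4 blood markers, nearly all HBA, to 170 to 224, 109.9 to 189.7 and 66.16 to 114.9 FPKM in that order. What these transcripts contribute to the differences below was not tested.

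Most of the 31 genes were higher in morulae than at the 8-cell stage, in injected and uninjected embryos. The 31 genes together held 0.456% ± 0.0579 of the FPKM of annotated genes in KDM6A morulae, 0.452% ± 0.0287 in control morulae and 0.174% ± 0.0182 in 8-cell embryos (SD, n = 3 each). In bulk samples, more cells with a transcript and more RNA per cell cannot be told apart.

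Of the 31 genes, 28 were tested, the condition being a level of 1 FPKM or more in 3 libraries of a comparison. The others were PFKP, ENO2 and SLC16A3. In control morulae against 8-cell embryos, 25 of the 28 passed limma's test at a Benjamini-Hochberg adjusted p below 0.05, 23 higher and 2 lower, where 69.8% of 10048 tested genes passed, 42.7% higher and 27.1% lower. PFKM and PFKL passed the filter through the morulae alone, where they are high, so their calls follow in part from the filter. Without them 23 of 26 passed in control morulae and 22 of 26 in KDM6A morulae. The median log2 fold change of the 28 was 1.81, beside 0.35 for all tested genes. Groups did not overlap for 25 of the 28, 23 higher and 2 lower, beside 74.5% of all tested genes, 45.4% higher and 29.1% lower. In KDM6A morulae against the same 8-cell libraries, 24 passed, 22 higher and 2 lower, beside 66.7% of 10024 tested genes, 41.1% higher and 25.6% lower, and the median was 1.43, beside 0.34 for all genes. The 24 genes without overlap, 22 higher and 2 lower, stand beside 71.3% of all tested genes, 43.2% higher and 28.2% lower. Both comparisons share the 8-cell libraries and are therefore not independent. The shift of the median of all genes fell to 0.07 under quantile normalization in the control comparison, where the median of the 28 was 1.58.

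**Figure D1:**
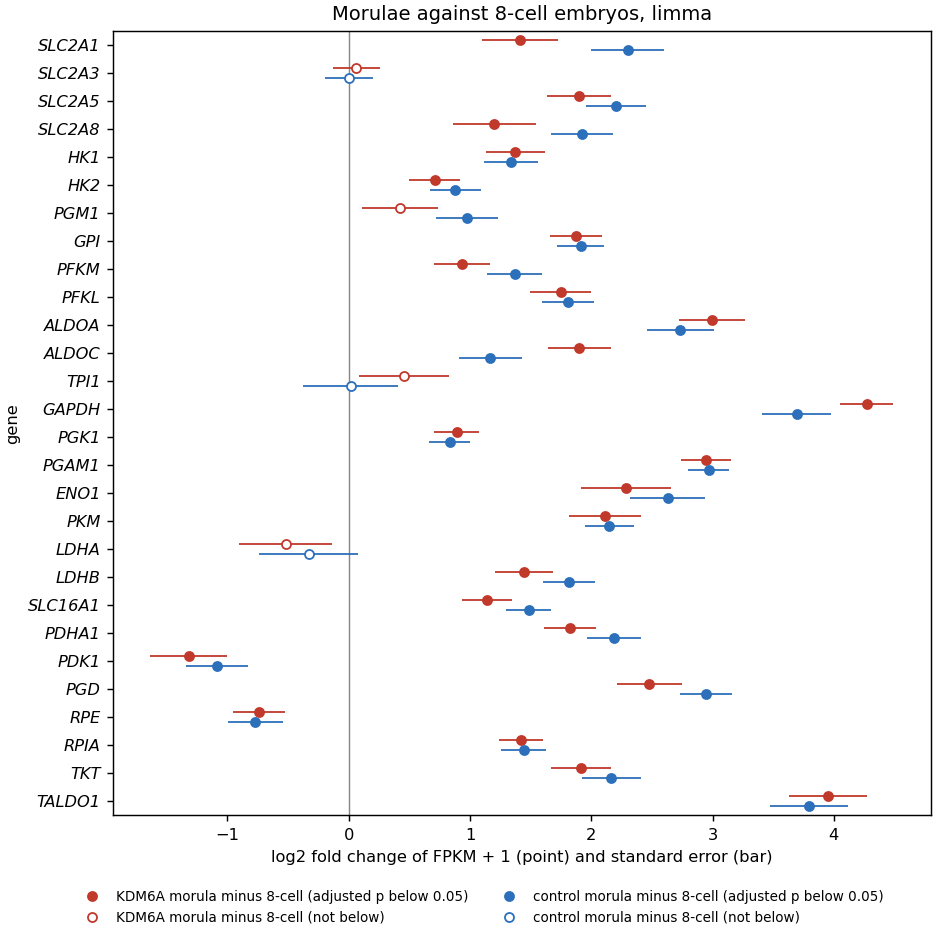
Log2 fold change of FPKM + 1 (horizontal axis, with standard errors as bars) for the 28 tested genes in KDM6A morulae against 8-cell embryos and in control morulae against the same 8-cell embryos, 3 libraries a group, limma. Filled points have an adjusted p below 0.05: nearly all lie right of 0, with RPE and PDK1 to the left and LDHA, TPI1 and SLC2A3 open. PGM1 is open in the KDM6A comparison alone.

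Among the hexose carriers, SLC2A1, SLC2A5 and SLC2A8 were higher in morulae while SLC2A3 did not pass the test. SLC2A3 encodes GLUT3, a glucose carrier of high affinity. It had 184, 213 and 191 FPKM in KDM6A morulae, 176, 215 and 175 FPKM in control morulae and 231, 163 and 174 FPKM in 8-cell embryos. The 3 groups overlapped fully. The log2 difference of control morulae from 8-cell embryos was 0.00, and that of KDM6A morulae 0.06, with limma adjusted p of 0.991 and 0.792, and its sign turned under several settings given at the end.

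SLC2A5, the fructose carrier GLUT5, had 189.96, 117 and 104 FPKM in KDM6A morulae, 136, 224 and 143 FPKM in control morulae and 38.2, 26.98 and 40.5 FPKM in 8-cell embryos. Every morula library was above every 8-cell library, by 3.89-fold in the KDM6A mean and 4.76-fold in the control mean (limma, log2 1.90, SE 0.267, adjusted p 0.000117 and log2 2.203, SE 0.248, adjusted p 4.18e-05). SLC2A1, or GLUT1, a widely used glucose carrier, had 21.75, 11.3 and 16.7 FPKM in KDM6A morulae, 21.1, 40.2 and 33.5 FPKM in control morulae and 7.33, 3.83 and 5.53 FPKM in 8-cell embryos. No morula library fell within the 8-cell range. The control mean was 5.68-fold the 8-cell mean (limma, log2 2.30, SE 0.300, adjusted p 0.000100) and the KDM6A mean 2.98-fold (log2 1.41, SE 0.313, adjusted p 0.00220). SLC2A8 encodes GLUT8, a carrier found mostly on membranes inside the cell, and was the lowest of the 4, at 8.66 ± 3.81 FPKM in KDM6A morulae, 14.2 ± 2.06 FPKM in control morulae and 3.03 ± 0.856 FPKM in 8-cell embryos (SD, n = 3 each). It was higher in both morula groups (limma, adjusted p 0.00958 for KDM6A and 0.000111 for control morulae), and in KDM6A morulae the call sat at the threshold under quantile normalization, with an adjusted p of 0.05.

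The mix of carriers therefore differed between the morula and the 8-cell libraries. Of the summed FPKM of the 4 carriers, SLC2A3 held 55.4% ± 8.96 in KDM6A morulae, 47.4% ± 3.81 in control morulae and 81.2% ± 2.83 in 8-cell embryos (SD, n = 3 each). SLC2A5 held 37.6% ± 7.76, 41.2% ± 3.47 and 15.2% ± 2.58 in the same order of groups. The share of SLC2A3 was lower by 33.8 points in control morulae than in 8-cell embryos, a difference without overlap that gave a two-sided exact permutation p of 0.1, the smallest that 3 against 3 libraries can give. SLC2A1 held 4.61% ± 1.19 of the carrier FPKM in KDM6A morulae, 7.80% ± 1.53 in control morulae and 2.35% ± 0.350 in 8-cell embryos (SD, n = 3 each).

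**Figure D2:**
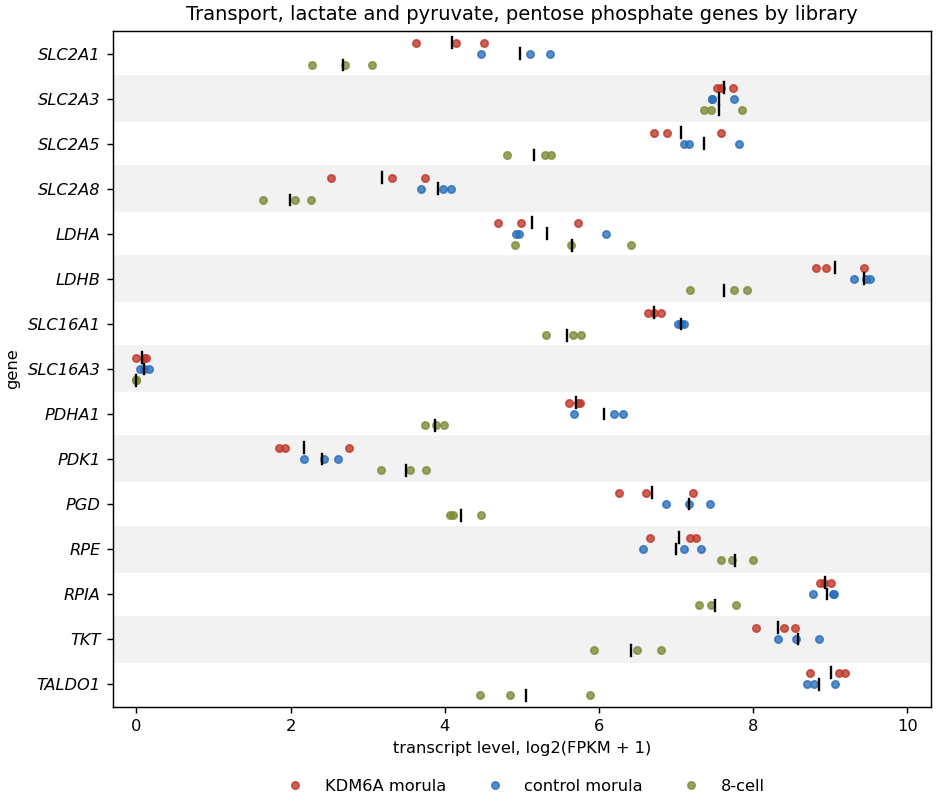
Level as log2(FPKM + 1) (horizontal axis) of the carriers, the lactate and pyruvate genes and the pentose phosphate genes (vertical axis). KDM6A morulae, control morulae and 8-cell embryos are shown with 1 point a library and a bar at each group mean of log2(FPKM + 1). SLC2A3 and LDHA overlap between stages, RPE and PDK1 are highest in 8-cell embryos, and TALDO1 is at 415 FPKM or more in every morula library.

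Hexokinase traps glucose in the cell as glucose 6-phosphate. HK2, the inducible form, had 57.7, 59.6 and 52.55 FPKM in KDM6A morulae, 52.8, 75.3 and 65.3 FPKM in control morulae and 37.6, 36.5 and 29.1 FPKM in 8-cell embryos. It was above the 8-cell range in all 6 morula libraries, by a modest 1.64-fold in KDM6A morulae and 1.87-fold in control morulae (limma, adjusted p 0.0108 and 0.00375). Without KDM6A replicate 2 the adjusted p of the KDM6A comparison was 0.0519, and with median-of-ratios scaling 0.0632. HK1, the form of most tissues, was far lower in level, at 5.17 ± 0.789 FPKM in KDM6A morulae, 5.00 ± 0.516 FPKM in control morulae and 1.37 ± 0.200 FPKM in 8-cell embryos (SD, n = 3 each), and higher in both morula groups by 3.77-fold and 3.64-fold (limma, adjusted p 0.000555 and 0.000406). HK2 held 91.6%, 92.7% and 96.2% of the FPKM of both genes in KDM6A morulae, control morulae and 8-cell embryos.

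GPI, which turns glucose 6-phosphate into fructose 6-phosphate, had 168, 145 and 120.47 FPKM in KDM6A morulae, 131, 168 and 144 FPKM in control morulae and 44.7, 34.7 and 36.2 FPKM in 8-cell embryos. The lowest morula library was well above the highest 8-cell library, and the folds of the means were 3.75 for KDM6A and 3.83 for control morulae (limma, adjusted p 2.69e-05 and 2.09e-05). PGM1 links glucose 6-phosphate with glucose 1-phosphate and so with glycogen and galactose. It had 26.97, 12.8 and 12.9 FPKM in KDM6A morulae, 21.1, 34.0 and 21.0 FPKM in control morulae and 11.97, 14.5 and 10.1 FPKM in 8-cell embryos. Control morulae were above 8-cell embryos (limma, log2 0.98, SE 0.255, adjusted p 0.0064), whereas KDM6A replicates 2 and 3 lay within the 8-cell range and that comparison did not pass (log2 0.42, adjusted p 0.253).

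Phosphofructokinase, which commits hexose to glycolysis, was low in level in all 3 groups. PFKL, the liver-type subunit, had 3.87, 1.77 and 2.00 FPKM in KDM6A morulae, 2.40, 3.52 and 2.00 FPKM in control morulae and 0.07, 0 and 0 FPKM in 8-cell embryos. PFKM, the muscle-type subunit, had 1.80, 1.35 and 1.12 FPKM in KDM6A morulae, 1.87, 2.66 and 2.26 FPKM in control morulae and 0.16, 0.59 and 0.08 FPKM in 8-cell embryos. Both were below 1 FPKM in all 8-cell libraries and entered the fit through the morulae alone, so their fold changes are a description. PFKL had log2 differences of 1.75 in KDM6A and 1.81 in control morulae and PFKM of 0.94 and 1.37. With a pseudocount of 0.1 FPKM in place of 1 these were 4.39 and 4.48 for PFKL and 2.23 and 2.88 for PFKM. PFKP, the platelet-type subunit, stayed below 1 FPKM in all morula libraries and reached 2.79 FPKM in 8-cell replicate 3 only, beside 0.12 and 0.33 FPKM in the other 8-cell libraries. The 3 subunits summed to 4.69 ± 1.68 FPKM in KDM6A morulae, 5.31 ± 1.08 FPKM in control morulae and 1.38 ± 1.32 FPKM in 8-cell embryos (SD, n = 3 each). PFKL and PFKM held 53.3% and 31.1% of the sum in KDM6A morulae and 49.2% and 42.9% in control morulae.

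The aldolases cleave fructose 1,6-bisphosphate. ALDOA, the muscle-type form, had 194, 165 and 141 FPKM in KDM6A morulae, 154, 155 and 109 FPKM in control morulae and 30.2, 14.8 and 17.3 FPKM in 8-cell embryos. ALDOC, the brain-type form, had 98.8, 93.6 and 76.6 FPKM in KDM6A morulae, 64.2, 50.5 and 46.4 FPKM in control morulae and 24.7, 15.9 and 31.2 FPKM in 8-cell embryos. Both were above 8-cell embryos in every morula library, ALDOA by 8.01-fold in KDM6A and 6.71-fold in control morulae, ALDOC by 3.75-fold and 2.24-fold (limma, highest adjusted p 0.00278). ALDOA held 64.9% ± 1.25 of the aldolase FPKM in KDM6A morulae, 72.05% ± 2.92 in control morulae and 46.3% ± 9.82 in 8-cell embryos (SD, n = 3 each). None of the 3 groups overlapped in this share, and each of the 3 differences had an exact permutation p of 0.1.

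TPI1, which interconverts the triose phosphates, was listed at only 4.31, 1.53 and 1.80 FPKM in KDM6A morulae, 3.07, 0.56 and 1.36 FPKM in control morulae and 1.58, 0.55 and 2.63 FPKM in 8-cell embryos. The groups overlapped, and neither stage comparison passed (limma, adjusted p 0.295 for KDM6A and 0.975 for control morulae). For an enzyme between aldolase and GAPDH this is a very low level, and whether reads of other copies or transcripts of the locus went to another row was not tested.

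**Figure D3:**
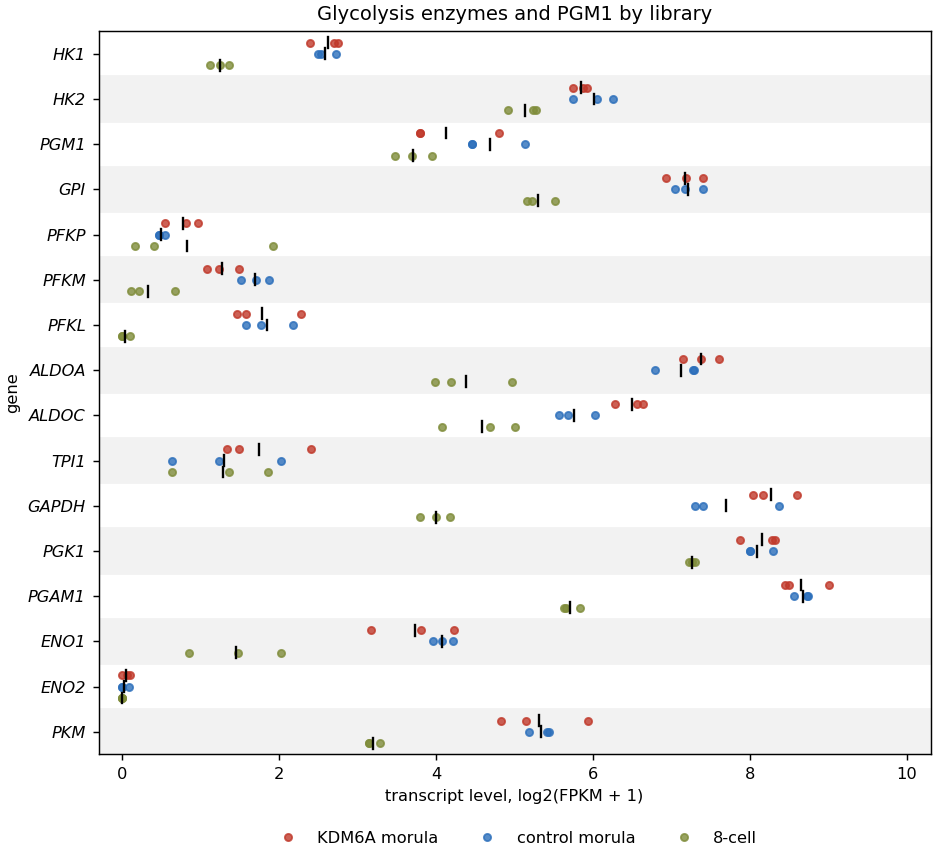
Level as log2(FPKM + 1) (horizontal axis) of the upper and lower glycolysis genes (vertical axis). KDM6A morulae, control morulae and 8-cell embryos are shown with 1 point a library and a bar at each group mean of log2(FPKM + 1). GAPDH, PGAM1, ALDOA and PKM lie further right in every morula library than in any 8-cell library, while TPI1 overlaps between the stages. TPI1 and the phosphofructokinase subunits stay below 5 FPKM.

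All 5 tested genes of the lower part of glycolysis were higher in both morula groups. GAPDH, which oxidises glyceraldehyde 3-phosphate and is often used as a reference transcript, had 386, 286 and 262 FPKM in KDM6A morulae, 330.03, 168 and 157 FPKM in control morulae and 17.1, 15.1 and 12.9 FPKM in 8-cell embryos. Its means were 20.7-fold the 8-cell mean in KDM6A and 14.5-fold in control morulae (limma, log2 4.27, SE 0.220, adjusted p 3.32e-07 and log2 3.70, SE 0.284, adjusted p 5.33e-06). The control mean rests in large part on replicate 1. PGAM1, a phosphoglycerate mutase, had 513, 360.02 and 347 FPKM in KDM6A morulae, 424, 424 and 375 FPKM in control morulae and 56.2, 49.3 and 48.3 FPKM in 8-cell embryos. The morula means were 7.93-fold (KDM6A) and 7.95-fold (control) the 8-cell mean (limma, adjusted p 1.62e-06 and 1.20e-06).

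PKM makes pyruvate, and the files give a single value for its splice forms. It had 60.2, 34.5 and 27.4 FPKM in KDM6A morulae, 41.6, 42.4 and 35.2 FPKM in control morulae and 8.78, 7.83 and 7.87 FPKM in 8-cell embryos. Stages did not overlap, with folds of 4.99 for KDM6A and 4.87 for control morulae (limma, adjusted p 0.000112 and 1.47e-05). ENO1, the enolase of most tissues, was lower in level at 12.9 ± 4.87 FPKM in KDM6A morulae, 16.0 ± 1.53 FPKM in control morulae and 1.88 ± 1.13 FPKM in 8-cell embryos (SD, n = 3 each), and passed in both comparisons (adjusted p 0.000285 and 5.38e-05). ENO2, the neuronal enolase, did not exceed 0.07 FPKM in any library. PGK1, one of the ATP-forming steps, moved least in this part of the pathway: it had 317, 309 and 234 FPKM in KDM6A morulae, 255, 312 and 254 FPKM in control morulae and an almost constant 156, 153 and 149 FPKM in 8-cell embryos. That is 1.88-fold in KDM6A and 1.79-fold in control morulae (limma, adjusted p 0.00154 and 0.00147).

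PGK1 and GAPDH, which act on successive intermediates, were therefore similar in level in morulae and far apart in 8-cell embryos. KDM6A morulae had 287 ± 45.6 FPKM of PGK1 and 311 ± 65.6 FPKM of GAPDH, control morulae 274 ± 33.3 and 218 ± 96.9 FPKM, and 8-cell embryos 153 ± 3.62 and 15.0 ± 2.10 FPKM (SD, n = 3 each).

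Lactate dehydrogenase was represented mainly by LDHB, the heart-type subunit, at both stages. LDHB had 693, 449 and 489.53 FPKM in KDM6A morulae, 705, 634 and 733 FPKM in control morulae and 242, 144 and 214 FPKM in 8-cell embryos. Every morula library was above the 8-cell range, by 2.72-fold in the KDM6A mean and 3.46-fold in the control mean (limma, log2 1.45, SE 0.241, adjusted p 0.000359 and log2 1.81, SE 0.214, adjusted p 5.44e-05). LDHA, the muscle-type subunit, had 52.1, 24.8 and 30.6 FPKM in KDM6A morulae, 67.1, 30.2 and 29.3 FPKM in control morulae and 29.0, 84.6 and 48.8 FPKM in 8-cell embryos. It overlapped between stages and passed in neither comparison (limma, log2 -0.52, adjusted p 0.246 for KDM6A and log2 -0.33, adjusted p 0.488 for control morulae). Its highest library in each group was also the one with the highest summed oocyte markers: KDM6A replicate 1 at 195.84 FPKM, control replicate 1 at 488.59 FPKM and 8-cell replicate 2 at 9137.9 FPKM. The mean log2(FPKM + 1) of the markers peaked in the same libraries. BTG4 held 8657.55 FPKM of the sum in 8-cell replicate 2, where BMP15 and KPNA7 were lowest of the group, at 206.45 and 95.96 FPKM. KDM6A replicate 1 was the highest of its group in 23 of 28 genes. In 8-cell replicate 2 the sums of fibroblast and of cumulus and granulosa markers were also the highest of the group, at 65.67 and 36.46 FPKM. A link between LDHA and any of these markers was not tested. Without 8-cell replicate 1, LDHA was lower in KDM6A morulae at log2 -0.89 and an adjusted p of 0.0441.

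LDHB held 93.0%, 94.8% and 94.1% of the FPKM of both subunits in KDM6A morulae, 91.3%, 95.4% and 96.2% in control morulae and 89.3%, 63.0% and 81.4% in 8-cell embryos. The share was thus uniformly high in the 6 morula libraries and spread widely over the 8-cell libraries, with 16.1 points between KDM6A morulae and 8-cell embryos and 16.4 points between control morulae and 8-cell embryos (exact permutation p 0.1 each).

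**Figure D4:**
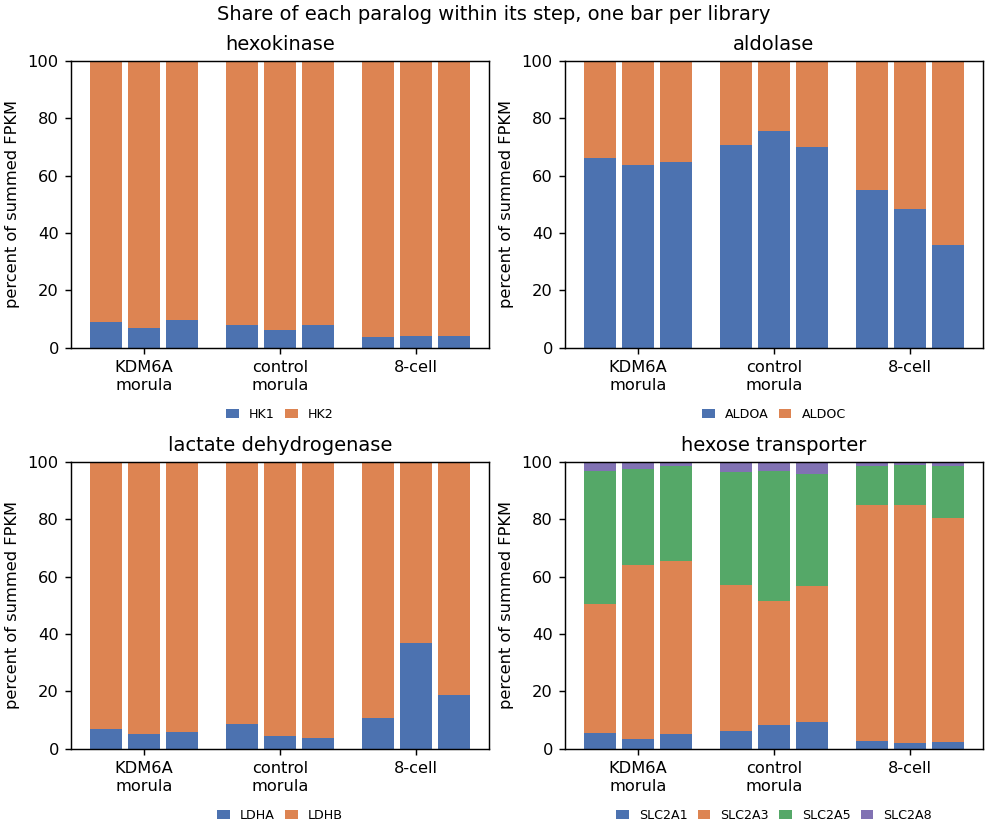
Percent of the summed FPKM held by each paralog of hexokinase, aldolase, lactate dehydrogenase and the hexose carriers in every library. Bars are stacked from 0 to 100 for KDM6A morulae, control morulae and 8-cell embryos. LDHB and ALDOA hold larger shares in morulae and SLC2A3 a larger one in 8-cell embryos.

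Over the 7 steps with more than one paralog, 21 differences in the share of the leading gene were computed, 11 of them without overlap between groups. None can pass at 3 libraries a group, and the smallest p after Benjamini-Hochberg adjustment of the exact permutation tests was 0.191.

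SLC16A1 encodes MCT1, which carries lactate and pyruvate across the cell membrane. It had 110.46, 104 and 98.6 FPKM in KDM6A morulae, 129.71, 136 and 132 FPKM in control morulae and 49.6, 53.3 and 38.7 FPKM in 8-cell embryos. It was above 8-cell embryos by 2.21-fold in KDM6A and 2.81-fold in control morulae (limma, adjusted p 0.000552 and 8.03e-05), and its relative SLC16A3 (MCT4) did not exceed 0.12 FPKM in any library.

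PDHA1, the E1 alpha subunit of pyruvate dehydrogenase, and PDK1, a kinase that switches that complex off, moved in opposite directions. PDHA1 had 51.8, 47.9 and 53.1 FPKM in KDM6A morulae, 49.97, 72.5 and 78.1 FPKM in control morulae and 12.4, 14.9 and 13.8 FPKM in 8-cell embryos. PDK1 had 5.74, 2.60 and 2.80 FPKM in KDM6A morulae, 3.53, 5.12 and 4.41 FPKM in control morulae and 8.03, 12.5 and 10.7 FPKM in 8-cell embryos. PDHA1 was 3.72-fold higher in KDM6A and 4.88-fold higher in control morulae (limma, adjusted p 3.17e-05 and 2.39e-05), and PDK1 was lower in both, by log2 differences of -1.32 and -1.09 (adjusted p 0.0035 and 0.00345). Within a library, the ratio of PDHA1 to PDK1 FPKM was 9.02, 18.4 and 19.0 in KDM6A morulae, 14.2, 14.1 and 17.7 in control morulae and 1.54, 1.19 and 1.28 in 8-cell embryos.

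In the pentose phosphate pathway, 4 of the 5 genes were higher in both morula groups and RPE was lower. TALDO1, a transaldolase that moves carbon back to glycolysis, had 583, 551 and 425 FPKM in KDM6A morulae, 535, 442 and 415 FPKM in control morulae and 57.8, 20.9 and 27.8 FPKM in 8-cell embryos. This gap of 14.7-fold in KDM6A and 13.1-fold in control morulae was far larger than the spread within any group (limma, log2 3.95, SE 0.323, adjusted p 3.80e-06 and log2 3.79, SE 0.323, adjusted p 8.84e-06). PGD, an NADPH-forming enzyme of the oxidative arm, had 148, 96.5 and 75.3 FPKM in KDM6A morulae, 116, 173 and 143 FPKM in control morulae and 15.7, 16.2 and 21.2 FPKM in 8-cell embryos, and was 6.02-fold and 8.13-fold higher (limma, adjusted p 2.23e-05 and 4.03e-06). TKT, the transketolase that works beside TALDO1, averaged 323 ± 55.7 FPKM in KDM6A morulae, 385 ± 71.7 FPKM in control morulae and 86.7 ± 25.3 FPKM in 8-cell embryos (SD, n = 3 each; limma, adjusted p 6.50e-05 and 4.38e-05).

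RPIA and RPE both act on ribulose 5-phosphate: RPIA makes ribose 5-phosphate and RPE makes xylulose 5-phosphate. RPIA had 467, 514 and 481 FPKM in KDM6A morulae, 524, 439 and 527 FPKM in control morulae and 174, 157 and 218 FPKM in 8-cell embryos. RPE ran the other way, with 100.2, 144 and 152 FPKM in KDM6A morulae, 159, 94.4 and 136 FPKM in control morulae and 191, 209.73 and 255 FPKM in 8-cell embryos. RPIA was 2.66-fold higher in KDM6A and 2.71-fold higher in control morulae (limma, adjusted p 6.75e-05 and 9.36e-05). RPE was lower by log2 differences of -0.74 and -0.77 (adjusted p 0.0110 and 0.0117), and without 8-cell replicate 3 the control comparison had an adjusted p of 0.0503.

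A wider list of 94 genes of the same pathways was chosen by known role, again with earlier results of these data known. Of these, 87 were in the files. In control morulae against 8-cell embryos, 53 of the 94 could be tested, of which 29 were higher, 12 lower and 12 passed in neither direction, with a median log2 change of 0.81. In KDM6A morulae, 28 of 55 tested were higher and 11 lower, with a median of 0.72. The shares that passed, 77.4% in control and 70.9% in KDM6A morulae, are near the 69.8% and 66.7% of all tested genes, so the counts are no result about this list. Of the tested genes of the list, 3 in the control and 6 in the KDM6A comparison reached the filter through 1 group alone. Without them 38 of 50 passed in control and 33 of 49 in KDM6A morulae. Of the further glycolysis genes, 1 of 9 tested was higher and 3 were lower in control morulae, and 0 were higher and 3 lower of 9 in KDM6A morulae. Further pentose phosphate genes had 6 of 8 higher and 2 lower in both morula groups. Genes of glycogen and hexose conversion had 8 of 12 higher with 2 lower in control and 1 lower in KDM6A morulae. Over all tested genes, 42.7% were higher and 27.1% lower in control morulae, and 41.1% and 25.6% in KDM6A morulae. RBKS (pentose phosphate, both comparisons), PGM2L1 (hexose conversion, control) and PFKFB1 (glycolysis, KDM6A) are in these counts. They reached the filter through 1 group alone, so their calls follow in part from the filter.

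PGLS, which acts just before PGD in the oxidative arm of the pentose phosphate pathway, had 57.2, 56.6 and 43.8 FPKM in KDM6A morulae, 45.5, 39.9 and 42.2 FPKM in control morulae and 9.78, 1.75 and 13.2 FPKM in 8-cell embryos (limma, adjusted p 0.000534 and 0.00137 for KDM6A and control morulae). PRPSAP1, a partner of the enzyme that makes phosphoribosyl pyrophosphate, was higher by log2 2.68 in KDM6A and 3.103 in control morulae (adjusted p for control 4.05e-06).

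BSG, or basigin, the partner that takes MCT1 to the cell membrane, had 345, 281 and 227 FPKM in KDM6A morulae, 278, 347 and 248 FPKM in control morulae and 17.2, 8.55 and 7.12 FPKM in 8-cell embryos. It was 26.6-fold higher in the control mean, and passed in both comparisons (limma, log2 4.65, adjusted p 1.13e-06 for KDM6A and log2 4.69, adjusted p 1.97e-06 for control morulae). MPC1, a subunit of the mitochondrial pyruvate carrier, had 332, 209 and 227 FPKM in KDM6A morulae, 328, 421 and 352 FPKM in control morulae and 46.0, 48.6 and 37.8 FPKM in 8-cell embryos (adjusted p 7.00e-06 and 1.77e-06). GALK1, which phosphorylates galactose, was higher by log2 2.80 in KDM6A and 2.93 in control morulae. TXNIP, which holds back glucose uptake, was higher as well, by log2 2.72 and 2.51 (limma, adjusted p 1.75e-05 and 3.35e-05).

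Among the genes that were lower, HIF1A, the oxygen-regulated activator of glycolysis genes, had 7.55, 6.62 and 5.93 FPKM in KDM6A morulae, 8.49, 6.51 and 7.29 FPKM in control morulae and 26.6, 36.3 and 45.2 FPKM in 8-cell embryos. It fell by 2.24 on the log2 scale in KDM6A and by 2.11 in control morulae (limma, adjusted p 3.37e-05 and 5.13e-05). PDP2, a phosphatase that switches pyruvate dehydrogenase on, had 7.53, 12.6 and 15.3 FPKM in KDM6A morulae, 6.55, 4.62 and 3.20 FPKM in control morulae and 74.4, 57.9 and 66.0 FPKM in 8-cell embryos (adjusted p 2.56e-05 and 3.51e-06). PDK2, a further kinase of that complex, was higher by log2 1.99 in KDM6A and 1.90 in control morulae, so its regulators did not share a direction. DLD, a subunit shared by pyruvate dehydrogenase and related complexes, was lower, by log2 differences of -1.41 in KDM6A and -1.40 in control morulae (adjusted p 3.80e-05 and 0.000129). GFPT1, the entry enzyme of hexosamine synthesis, was lower with log2 differences of -2.06 in KDM6A and -2.68 in control morulae (limma, adjusted p at most 0.000133). PFKFB1 encodes an isoform of the enzyme that sets the level of fructose 2,6-bisphosphate. It had 0.64, 0.65 and 0.34 FPKM in KDM6A morulae, 3.88, 0.04 and 0.95 FPKM in control morulae and 2.88, 13.3 and 5.39 FPKM in 8-cell embryos. Its log2 difference in control morulae was -1.72 (limma, adjusted p 0.023). It entered that fit mainly through the 8-cell libraries, and control replicate 1 lay above 8-cell replicate 1. The log2 difference in KDM6A morulae, -2.205, is a description, since the gene entered that fit through the 8-cell libraries alone. PFKFB4, a further isoform, averaged 15.3, 8.51 and 10.2 FPKM in KDM6A morulae, control morulae and 8-cell embryos. It passed in neither stage comparison (limma, adjusted p 0.163 for KDM6A and 0.748 for control morulae).

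Between KDM6A and control morulae, none of the 28 tested genes passed limma's test, where 16 of 9777 genes did (0.164%, with 0.123% higher and 0.0409% lower). At an unadjusted p below 0.05 there were 4, beside 12.7% of all tested genes: ALDOC higher and SLC2A1, SLC2A8 and SLC16A1 lower. Log2 differences were above 0 for 9 and below 0 for 19, with a median of -0.12 beside -0.01 for all genes. Groups did not overlap for 3 of the 28, beside 15.7% of all tested genes, 7.1% higher and 8.61% lower. These were ALDOC, higher, and PFKM and SLC16A1, lower. With 53 of the wider list tested, 0 passed and 7 were at an unadjusted p below 0.05.

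ALDOC, at 89.7 ± 11.6 FPKM in KDM6A and 53.7 ± 9.32 FPKM in control morulae (SD, n = 3 each), had a log2 difference of 0.73 (SE 0.183, 95% interval 0.33 to 1.14, limma p 0.00213, adjusted p 0.197). All 3 KDM6A libraries were above all 3 control libraries, and adjusted p ranged from 0.0665 to 0.722 over the alternative settings. SLC2A1, at 16.6 ± 5.22 FPKM in KDM6A and 31.6 ± 9.69 FPKM in control morulae (SD, n = 3 each), had the largest negative difference, -0.89 (SE 0.282, 95% interval -1.51 to -0.27, limma adjusted p 0.283), although KDM6A replicate 1 lay above control replicate 1. SLC2A8 differed by -0.72 (95% interval -1.37 to -0.08, limma adjusted p 0.342), or -0.39 without KDM6A replicate 3, and SLC16A1 by -0.34 (95% interval -0.66 to -0.03, limma adjusted p 0.353).

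The intervals of the other genes were mostly wide. GAPDH differed by 0.58 with a 95% interval of -0.01 to 1.16, and LDHB by -0.37 with an interval of -0.74 to 0.01. Single libraries moved both: GAPDH was 0.915 without control replicate 1 and 0.382 without control replicate 3, and LDHB -0.24 without KDM6A replicate 2. The narrower ones were RPIA at -0.02 with an interval of -0.32 to 0.27, SLC2A3 at 0.06 with an interval of -0.27 to 0.39 and PGK1 at 0.06 with an interval of -0.30 to 0.42. The ALDOA share of aldolase was 7.14 points lower in KDM6A than in control morulae and the PFKM share of phosphofructokinase 11.8 points lower, both without overlap (exact permutation p 0.1, the smallest possible).

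**Figure D5:**
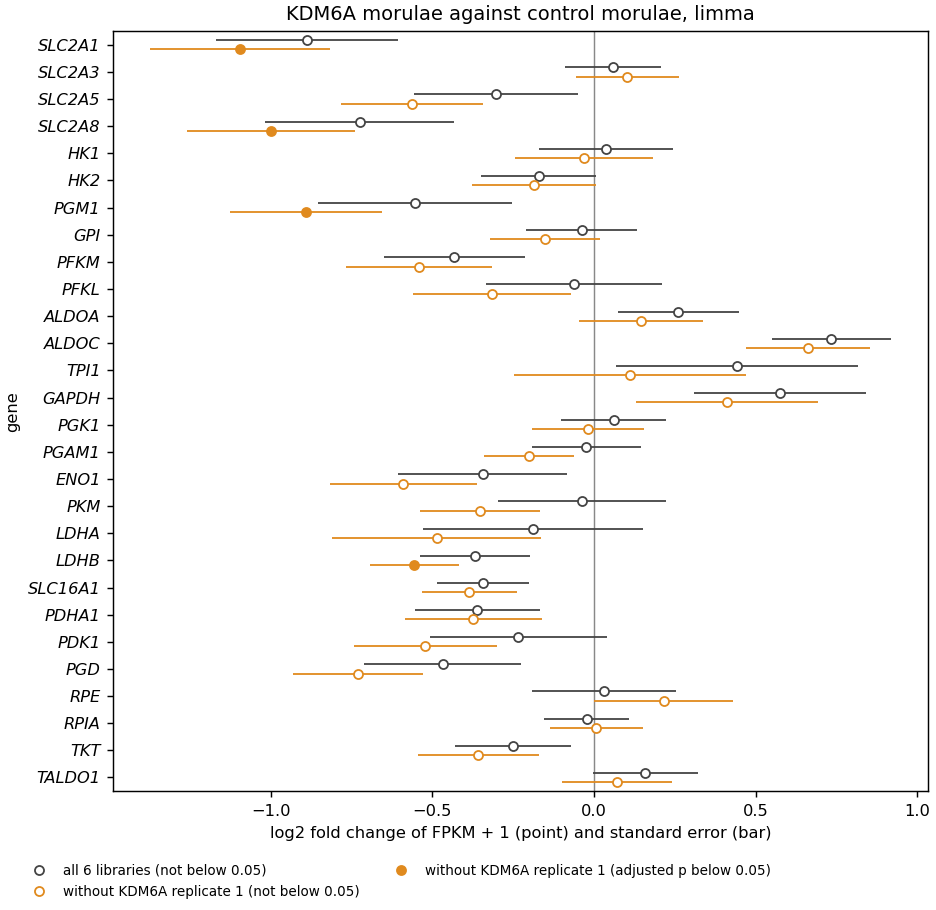
Log2 fold change of FPKM + 1 in KDM6A against control morulae (horizontal axis, standard errors as bars) for the 28 tested genes, with all 6 libraries and without KDM6A replicate 1, limma. With all 6 libraries no point is filled. Without that replicate, SLC2A1, SLC2A8, PGM1 and LDHB are filled (adjusted p below 0.05), left of 0.

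The 3 KDM6A libraries were not alike in these genes. KDM6A replicate 1, the library with the least KDM6A transcript, had the highest value of its group in 23 of the 28 tested genes (82.1%), beside 44.8% of 9625 genes at 1 FPKM or more in at least 2 of its libraries. KDM6A replicate 2 was highest in 3 and replicate 3 in 2. Among control morulae, replicate 2 was highest in 16 of 28 (57.1%, beside 38.6% of all such genes). Without KDM6A replicate 1, 4 of the 28 genes were lower in KDM6A morulae in limma's test: SLC2A1 (log2 -1.10, adjusted p 0.0442), SLC2A8 (log2 -0.999, adjusted p 0.0473), PGM1 (log2 -0.89, adjusted p 0.0490) and LDHB (log2 -0.56, adjusted p 0.0409). In the same fit 745 of 9777 genes passed, 380 higher and 365 lower, against 16 with all libraries. The median of the 28 genes was -0.33, beside -0.04 for all genes. The 4 calls thus rest on leaving out 1 library.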

How the data were processed

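The authors deposited 1 table of FPKM values per library, rounded to 2 decimals, per the file headers and values. The submitters' processing notes name the UMD3.1 build, RSEM 1.2.12, Bowtie2 2.2.5, HISAT 0.1.6, StringTie 1.0.4 and bcl2fastq 2.16. Their roles, filters and the treatment of multiply mapped reads are not given in sources used here. Depth is unknown and low values do not step by whole reads, so errors come from the spread between libraries.

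Files were joined by gene identifier. Of the 31 symbols, all are in the 8-cell files and 27 in the morula files, where PKM is named PKM2 and the rows of SLC2A3, SLC2A5 and RPE carry no symbol. A further 3038 rows of control morula replicate 1 without a gene identifier were not used. Fits were made in R 4.3.3 with limma 3.58.1 and a trended prior, on log2(FPKM + 1), each comparison on its own 6 libraries. Genes entered with 1 FPKM or more in 3 or more libraries. P-values were adjusted over all genes tested (Benjamini-Hochberg, threshold 0.05). A fold change on this scale understates the change of low genes. A value written as -fold is the quotient of 2 group means of FPKM. Shares of paralogs are percents of a step's summed FPKM, compared by two-sided exact permutation tests. Python 3.11.15, pandas 2.3.3, numpy 2.4.6, scipy 1.17.1 and matplotlib 3.10.9 were used, and the fit was tested on simulated data.

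The members and lists were chosen with earlier results of these data known. Each of the 31 genes is described. From the wider list, the 3 largest rises and falls per stage comparison that passed the test, and PGLS, HIF1A, TXNIP and BSG, are named (1 further gene is not reported here), while DLD and PDK2 were chosen after their values were seen. Alternatives were other pseudocounts, filters and scalings, all 9 libraries in 1 fit, a replicate block and leaving out each replicate. Promoter and protein sequences were not used here.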

Additional observations from a re-analysis of the deposited data

How the results depend on the processing

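Of the recomputed fold changes of single genes, 955 kept their direction and their side of the threshold, 16 turned sign, 5 newly passed and 4 no longer passed. Between KDM6A and control morulae this tally holds only the genes with the lowest unadjusted p. These are PFKM, ALDOC, GAPDH, LDHB, SLC2A1, SLC2A8, SLC16A1, PGD, PGM1 and PDHA1. Of the genes left out there, HK1, PGK1 and RPIA, all with differences near 0, turned sign without KDM6A replicate 1. Left-out replicates gave 0 to 4 genes passing between KDM6A and control morulae, and 0 to 4 lower, with the 4 arising without KDM6A replicate 1, against 0 in each with all libraries. They gave 1 to 2 lower genes in control morulae against 8-cell embryos, the 1 arising without 8-cell replicate 3, where RPE was lost. For control morulae against 8-cell embryos, TPI1 (0.02 as reported) was -0.10 as TPM, -0.25 with quantile normalization, -0.14 with median-of-ratios scaling and -0.35 to 0.35 with a replicate left out. SLC2A3 (0.00 as reported) was -0.18, -0.18, -0.28 and -0.10 to 0.15 under the same settings, and LDHA (-0.33 as reported) -0.71 to 0.0515 with a replicate left out. For KDM6A morulae against 8-cell embryos, SLC2A3 (0.06 as reported) was -0.0547, -0.0346, -0.20 and -0.0362 to 0.21. None of these values passed limma's test, and the cause was not tested. Over all genes, the 16 calls between KDM6A and control morulae were 0 with no filter, 25 as TPM, 28 with quantile normalization, 10 with all 9 libraries in 1 fit and 1 to 745 with a replicate left out. A filter of 5 FPKM left 24 of the 31 genes testable in that comparison, with 0 passing, beside 11 of 6730 over all genes. Against 8-cell embryos under that filter, 22 of 24 passed in control morulae, beside 5086 of 7015 over all genes. In KDM6A morulae 20 of 23 passed, beside 4736 of 6926. The replicate block gave 0, 25 and 24 genes passing, as without it, and 1 call over all genes between KDM6A and control morulae. Against 8-cell embryos it gave 6943 of 10048 genes passing in control and 6653 of 10024 in KDM6A morulae. Samples with the same number deviated from their group means with correlations of -0.242 to 0.16 over the 3 comparisons. With 3 libraries a group these values cannot settle whether the numbers pair samples, and the main fits did not pair them. Adding 1 FPKM to each paralog moved 7 of 21 share differences by more than their spread and left 14 within it, and among the 7 was that of ENO1 in control morulae against 8-cell embryos, which became 21.58 points. Depth is unknown, so limits at low values such as those of PFKP, ENO2 and SLC16A3 were not given. A search of promoters for motifs was not run, since no promoter sequence was used here.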
